A study of Rattus norvegicus with 17 samples.

Results

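The 10 genes described here mark smooth muscle cells and pericytes, the mural cells of vessel walls, and were read in rat skin after chronic exposure to millimetre waves. They are Acta2, Actg2, Tagln, Cnn1, Lmod1, Myh11, Mylk, Des, Rgs5 and Pdgfrb, chosen by name, and they were found on the array through the sequence name of each probe. They make up 10 of 15154 named genes on the arrays, and 14 probes stand for them, since Myh11, Lmod1, Actg2 and Mylk have 2 probes each. All 14 probes passed the filter on dim probes, which required a signal well above background on at least 8 arrays. On every one of the 17 arrays 13 of the probes were well above background, and the other, a Lmod1 probe, was so on 8 exposed and 6 sham arrays. A gene with 2 probes was read from the brighter one, and the other is given beside it.

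The exposed group holds 9 arrays of skin from male CD hairless rats that spent 3 h per day, on 3 days per week, under 94 GHz for 5.5 months. The sham group holds 8 arrays of skin from rats of the same strain and sex that were sham exposed on the same schedule. All rats were 2 to 3 months old at the start and were housed in pairs, and no group carries a transgene or a drug. According to the series' design, 6 animals were exposed and 8 sham exposed, which is fewer than the 9 exposed arrays. Some of those arrays may therefore come from the same animal, and the p-values then measure a spread that is in part technical. Each array holds RNA of a whole skin biopsy, in which fewer mural cells and less RNA per mural cell cannot be told apart.

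Smooth muscle cells lie in the walls of arteries and veins and in the small muscles that move hairs, and they contract when Mylk, the myosin light chain kinase, phosphorylates the light chain of Myh11 myosin so that it pulls on actin filaments. Pericytes sit on capillaries inside the basement membrane, and endothelial cells recruit them by releasing the growth factor Pdgfb, which binds the receptor Pdgfrb on the pericyte. Many contractile genes are switched on by the factor Srf with its partner Myocd, and Srf binds a short DNA element known as the CArG box.

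Promoter sequences are shown for 3 genes that differ in how their levels ran over the arrays: the actin Acta2, the actin-binding protein Cnn1 and the pericyte gene Rgs5. They come from RefSeq on the rat assembly GRCr8, cover 250 bases before and 50 bases after the start of the transcript, and run 5′ to 3′ on the strand of the gene. Acta2 lies at chr1:241172454-241172753 on the minus strand, Cnn1 at chr8:28908187-28908486 on the plus strand and Rgs5 at chr13:84380827-84381126 on the plus strand. Capitals mark matches to the TATA-like motif TATATAA and to the CArG box with at most 1 of its 6 middle bases off.
Acta2: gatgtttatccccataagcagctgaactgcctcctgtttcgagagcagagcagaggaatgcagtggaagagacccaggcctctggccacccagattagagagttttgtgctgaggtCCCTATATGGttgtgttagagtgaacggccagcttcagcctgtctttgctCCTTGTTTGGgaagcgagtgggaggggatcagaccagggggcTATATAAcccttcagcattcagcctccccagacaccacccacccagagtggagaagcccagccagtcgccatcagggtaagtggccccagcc
Cnn1: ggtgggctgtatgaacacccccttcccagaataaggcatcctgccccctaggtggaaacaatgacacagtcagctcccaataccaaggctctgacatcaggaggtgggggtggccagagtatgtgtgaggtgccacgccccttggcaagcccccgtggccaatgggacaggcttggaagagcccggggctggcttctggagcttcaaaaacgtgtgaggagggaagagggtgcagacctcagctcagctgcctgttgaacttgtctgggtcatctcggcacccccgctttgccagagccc
Rgs5: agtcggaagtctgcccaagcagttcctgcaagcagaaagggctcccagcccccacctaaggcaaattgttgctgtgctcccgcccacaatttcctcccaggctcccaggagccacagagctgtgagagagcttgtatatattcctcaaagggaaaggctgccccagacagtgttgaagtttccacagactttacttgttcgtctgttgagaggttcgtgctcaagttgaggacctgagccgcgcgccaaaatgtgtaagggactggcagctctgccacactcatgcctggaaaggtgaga

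The sequence table held promoters for 6 of the 10 members, namely Acta2, Actg2, Cnn1, Des, Mylk and Rgs5. Acta2 held 2 CArG-like elements, which began 134 and 84 bases upstream of the start, and a TATATAA 42 bases upstream. The other 5 windows held no CArG-like element, and no exact CArG box was found in any of the 6, searched on both strands. Among 33469 rat promoter windows of the same length, 9.424% held a CArG-like element, 1.637% an exact CArG box and 3.935% the motif TATATAA. A match to the CArG-like element was counted once where it read on both strands, and it did not overlap the TATATAA. The motif CATTCC, which Tead factors bind, was found in Acta2 and in Mylk, and in 14.19% of all windows. The windows of Actg2 and Mylk lie inside the gene, at starts of shorter transcripts. No match says only that these letters are not in this window.

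Levels are given as log2 of the background-subtracted signal minus the 75th percentile of the array, so that 0 is the 75th percentile and 1 unit is a doubling, and levels of different probes are not compared. No member differed between exposed and sham skin in limma after Benjamini-Hochberg adjustment over all 20709 kept probes, with adjusted p-values from 0.98 to 0.99. That count of 0 of 10 stands beside 0 of 20709 probes, or 0%, at an adjusted p under 0.05. At an unadjusted p under 0.05 the count was again 0 of 10 members, against 942 probes, or 4.55%, of which 121 were higher in exposed skin, or 0.584%, and 821 lower, or 3.96%. No member had exposed and sham ranges that did not overlap, and 0.00483% of all kept probes, a single probe, did. The difference, exposed minus sham, was positive for 8 members and negative for 2, with a median of 0.062, beside a median of -0.025 over all kept probes, of which 7974 were positive and 12735 negative. Leaving out sham replicate 1 turned that median to -0.014, and array weights turned it to -0.0055.

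**Figure D1:**
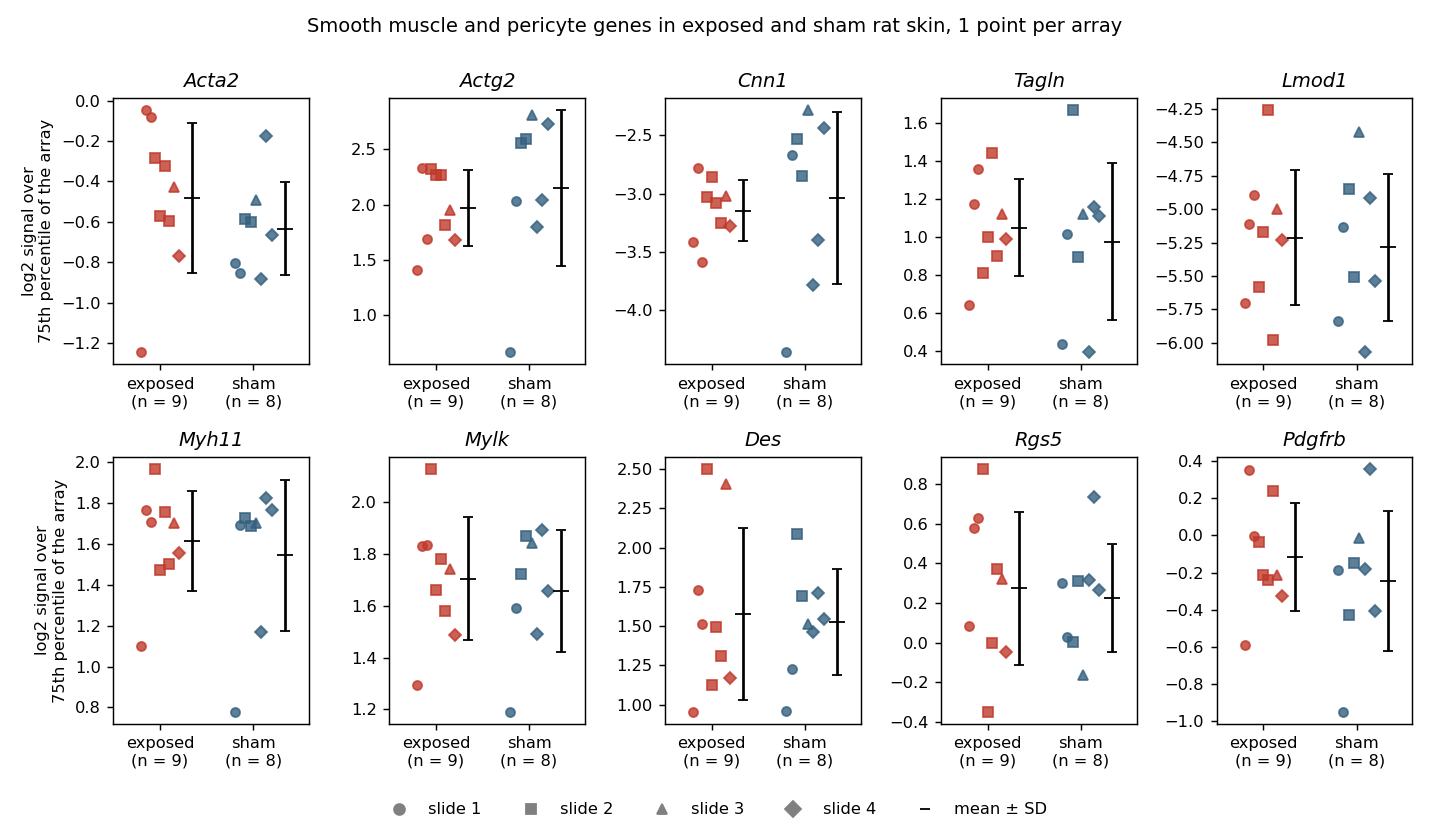
Levels of the 10 genes, in log2 units over the 75th percentile of each array, with 1 point per array, exposed arrays in red on the left and sham arrays in blue on the right, the marker shape showing the slide, and a bar for the mean ± SD. The ranges of the groups overlap in every panel, and sham replicate 1 is the lowest point for Myh11, Cnn1, Actg2 and Mylk. Slides were inferred from the numbers in the array titles.

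Among the thin filament genes, Acta2 encodes the smooth muscle alpha actin, which myofibroblasts also make. In exposed skin it lay between -1.25 and -0.05 with a median of -0.43, and in sham skin between -0.88 and -0.18 with a median of -0.63. The groups overlapped, with exposed replicate 1 the lowest of all arrays and 2 exposed arrays above the highest sham array. The means were -0.48 ± 0.37 over the 9 exposed arrays and -0.63 ± 0.23 over the 8 sham arrays (SD), and the difference was 0.15 with a 95% interval of -0.16 to 0.46, with 7 of 9 exposed arrays above the sham mean (limma, adjusted p = 0.982). This was the highest difference among the 10 genes, and on slide 4, with 1 exposed and 3 sham arrays, it was -0.20.

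Actg2, the smooth muscle gamma actin, was the member that varied most. It ranged from 1.41 to 2.34 with a median of 1.95 in exposed skin, and from 0.66 to 2.81 with a median of 2.30 in sham skin. All exposed values lay inside the sham range, whose ends were sham replicate 1 and sham replicate 5, a span of 4.44-fold. Means were 1.97 ± 0.34 over the 9 exposed arrays and 2.15 ± 0.71 over the 8 sham arrays (SD), a difference of -0.18 (-0.71 to 0.34; adjusted p = 0.982), with 4 of 9 exposed arrays above the sham mean. The other probe of Actg2 followed it at r = 0.999 over the arrays and gave the same difference of -0.18. Leaving out single arrays moved the difference of Actg2 between -0.40, without sham replicate 1, and -0.09, without sham replicate 5.

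Cnn1 is calponin, which binds actin and slows the myosin ATPase, and its values spread like those of Actg2. Exposed arrays lay between -3.59 and -2.78 with a median of -3.08, and sham arrays between -4.36 and -2.28 with a median of -2.76. Every exposed value was again inside the sham range, with sham replicate 1 lowest and sham replicate 5 highest. The means of -3.15 ± 0.26 over the 9 exposed arrays and -3.04 ± 0.73 over the 8 sham arrays (SD) differed by -0.11 (-0.63 to 0.41; adjusted p = 0.985). Without sham replicate 1 the difference was -0.30, and without sham replicate 5 it was 0.0014.

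Tagln, or SM22 alpha, is an actin-binding protein of the contractile cell. Its values ran from 0.64 to 1.44 with a median of 1.00 in exposed skin, and from 0.39 to 1.67 with a median of 1.06 in sham skin. No exposed array was outside the sham range. The means were 1.05 ± 0.26 over the 9 exposed arrays and 0.97 ± 0.41 over the 8 sham arrays (SD), a difference of 0.07 (-0.26 to 0.40; adjusted p = 0.985).

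Lmod1, leiomodin, starts new actin filaments in smooth muscle, and its probes lay far below the 75th percentile of their arrays. The brighter probe lay between -5.98 and -4.26 in exposed skin, with a median of -5.17, and between -6.07 and -4.43 in sham skin, with a median of -5.32. The means of -5.22 ± 0.50 over the 9 exposed arrays and -5.29 ± 0.55 over the 8 sham arrays (SD) differed by 0.07 (-0.44 to 0.58; adjusted p = 0.988). The groups overlapped over nearly their whole range, with 1 exposed array above the highest sham array. The other probe differed by 0.19 (-0.27 to 0.65; adjusted p = 0.982), and it followed the first only loosely, at r = 0.47 over the arrays, so the array-to-array pattern of Lmod1 depends on the probe.

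Myh11 and Mylk are the motor and its kinase. Myh11, the smooth muscle myosin heavy chain, ranged from 1.10 to 1.96 with a median of 1.70 in exposed skin, and from 0.78 to 1.82 with a median of 1.70 in sham skin. Only sham replicate 1 lay below the lowest exposed array, and exposed replicate 4 alone lay above the highest sham array. Myh11 averaged 1.61 ± 0.25 over the 9 exposed arrays and 1.54 ± 0.37 over the 8 sham arrays (SD), a difference of 0.07 (-0.23 to 0.37; adjusted p = 0.985). The other probe of Myh11 differed by 0.03 and followed the first at r = 0.93.

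Mylk had the smallest spread of the members, 1.91-fold from the lowest to the highest array. Its values lay between 1.29 and 2.13 in exposed skin, with a median of 1.74, and between 1.19 and 1.89 in sham skin, with a median of 1.69. Sham replicate 1 was lowest and exposed replicate 4 highest. The means of 1.70 ± 0.24 over the 9 exposed arrays and 1.66 ± 0.24 over the 8 sham arrays (SD) differed by 0.05 (-0.19 to 0.28; adjusted p = 0.985).

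The other, dimmer probe of Mylk had a difference of the opposite sign. It lay between -2.77 and -1.98 in exposed skin, with a median of -2.63, and between -2.57 and -1.95 in sham skin, with a median of -2.22. Of the exposed arrays 5 were below the lowest sham array and 2 were above the sham mean, so the groups overlapped in part. The means of -2.48 ± 0.32 over the 9 exposed arrays and -2.26 ± 0.19 over the 8 sham arrays (SD) differed by -0.22 (-0.48 to 0.04), and this did not pass, at an unadjusted p of 0.095 and an adjusted p of 0.982. By slide the difference was -0.04, -0.55, 0.36 and -0.45, so it was not of the same sign on every slide. The probes of Mylk followed each other at r = 0.44.

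**Figure D2:**
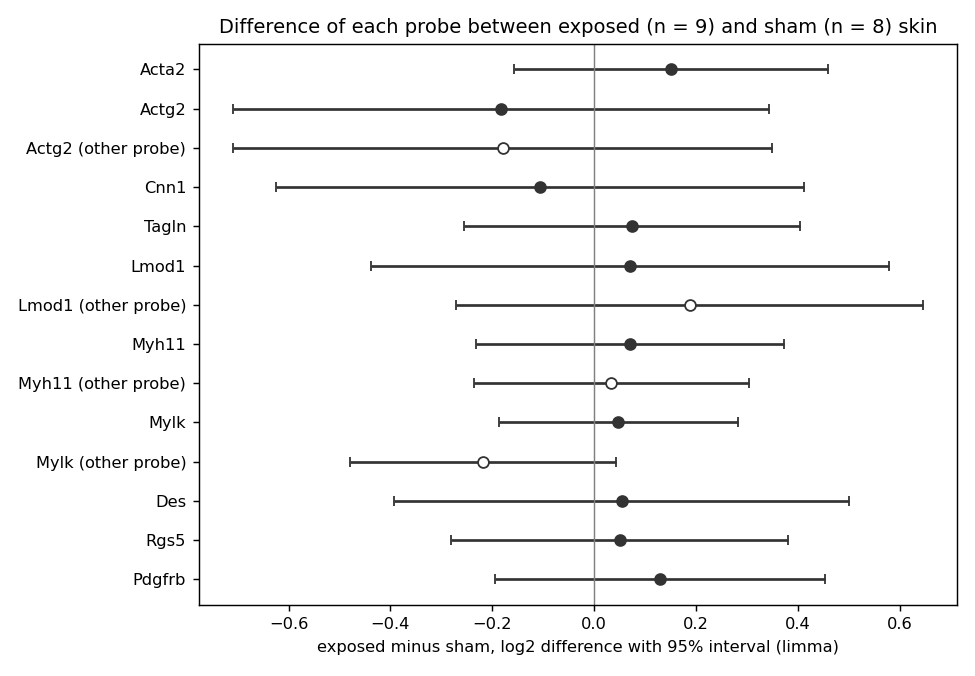
Difference of each of the 14 probes between exposed (n = 9) and sham (n = 8) skin, in log2 units on the horizontal axis, with its 95% interval from limma, filled points for the probe a gene was read from and open points for the other probe. Every interval crosses 0. Among the filled points it is widest for Actg2, at -0.71 to 0.34, and narrowest for Mylk, at -0.19 to 0.28.

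Des encodes desmin, the intermediate filament of smooth, skeletal and heart muscle, and is also found in pericytes. It ranged from 0.96 to 2.50 with a median of 1.50 in exposed skin, and from 0.96 to 2.09 with a median of 1.53 in sham skin. The values were not evenly spread: exposed replicates 4 and 8 and sham replicate 3 lay at 2.50, 2.40 and 2.09, and the other 14 arrays lay between 0.96 and 1.73. Des averaged 1.58 ± 0.55 over the 9 exposed arrays and 1.52 ± 0.34 over the 8 sham arrays (SD), a difference of 0.05 (-0.39 to 0.50; adjusted p = 0.988), with 3 of 9 exposed arrays above the sham mean. With the skeletal muscle marker score in the fit the difference was -0.13.

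The same 3 arrays stood apart in skeletal muscle RNA. The skeletal muscle score, the mean of 12 measured markers of 18 listed, Acta1 and Ckm first, after centring each on its mean, ran from -3.01 to 5.44 with a median of -0.36 in exposed skin and from -3.02 to 4.76 with a median of -2.50 in sham skin. Exposed replicates 4 and 8 had 5.23 and 5.44, and sham replicate 3 had 4.76, while the other 14 arrays did not exceed 2.26. They also stood apart in the score of 5 slow and cardiac muscle markers. Over the other 14 arrays Des and the skeletal muscle score had r = 0.34 (permutation p adjusted over 100 relations = 0.435). The part of striated muscle in the level of Des was not tested beyond this.

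Of the pericyte genes, Rgs5 encodes a regulator that shortens signalling by G proteins and is widely used as a pericyte marker. It lay between -0.35 and 0.88 in exposed skin, with a median of 0.32, and between -0.16 and 0.73 in sham skin, with a median of 0.28. Exposed skin held both the lowest array, replicate 5, and the highest, replicate 4. The means of 0.27 ± 0.39 over the 9 exposed arrays and 0.22 ± 0.27 over the 8 sham arrays (SD) differed by 0.05 (-0.28 to 0.38; adjusted p = 0.987).

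Pdgfrb, the receptor that draws pericytes to vessels and is also made by fibroblasts, ran from -0.59 to 0.35 with a median of -0.21 in exposed skin, and from -0.95 to 0.36 with a median of -0.18 in sham skin. All exposed values lay inside the sham range. Its means were -0.11 ± 0.29 over the 9 exposed arrays and -0.24 ± 0.38 over the 8 sham arrays (SD), a difference of 0.13 (-0.20 to 0.45; adjusted p = 0.982), with 7 of 9 exposed arrays above the sham mean. Without sham replicate 2 the difference was 0.03, and without sham replicate 7 it was 0.22.

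The intervals set how large a change these arrays could hide, provided that each array stands for its own animal. If exposed arrays share animals, the intervals may be too narrow. For Acta2 the 95% interval ran from 0.90-fold to 1.37-fold, for Myh11 from 0.85-fold to 1.29-fold, for Rgs5 from 0.82-fold to 1.30-fold and for Pdgfrb from 0.87-fold to 1.37-fold. Cnn1, Lmod1 and Actg2 were known less well, with intervals of 0.65-fold to 1.33-fold, 0.74-fold to 1.49-fold and 0.61-fold to 1.27-fold. These 3 genes also had SDs over the 17 arrays above those of 91.5 to 92.5% of all kept probes, against 59.7% for Mylk. The 17 arrays lay on 4 slides with 3 and 2, 4 and 2, 1 and 1, and 1 and 3 exposed and sham arrays. The slide was inferred from the first number in each array's title, which the titles do not name as a slide. Between slides 0 of 14 member probes passed the adjusted threshold, beside 0% of all kept probes. At an unadjusted p under 0.05 the count was 1 of 14 beside 8.91%, and this was the dimmer Lmod1 probe, with an adjusted p of 0.501 in the limma F test. With slide as a block the members' differences lay between -0.21, for Actg2, and 0.16, for Pdgfrb.

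Over the arrays some members ran together closely and others did not. Of their 45 pairs 40 had a positive correlation, with a median r of 0.49, and 13 pairs passed at a permutation p adjusted over the 45 pairs under 0.05, all of them positive. Within the 7 genes of the filament and the motor (Acta2, Actg2, Tagln, Cnn1, Lmod1, Myh11 and Mylk) 10 of 21 pairs passed, with r from 0.18 to 0.91. By contrast Rgs5 passed with 0 of those 7 genes, at r from -0.32 with Cnn1 to 0.51 with Acta2, and Pdgfrb passed with Acta2 alone, at r = 0.70. These counts per gene were not tested against each other. The 5 negative pairs were Rgs5 with Cnn1, Lmod1, Actg2 and Tagln, and Pdgfrb with Cnn1, and none of them passed. After centring on the slide, r of Rgs5 with the 7 filament and motor genes ran from -0.24, with Cnn1, to 0.62, with Mylk. Within exposed arrays it ran from -0.22, with Lmod1, to 0.66, with Mylk. Within sham arrays it ran from -0.56, with Cnn1, to 0.40, with Acta2.

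**Figure D3:**
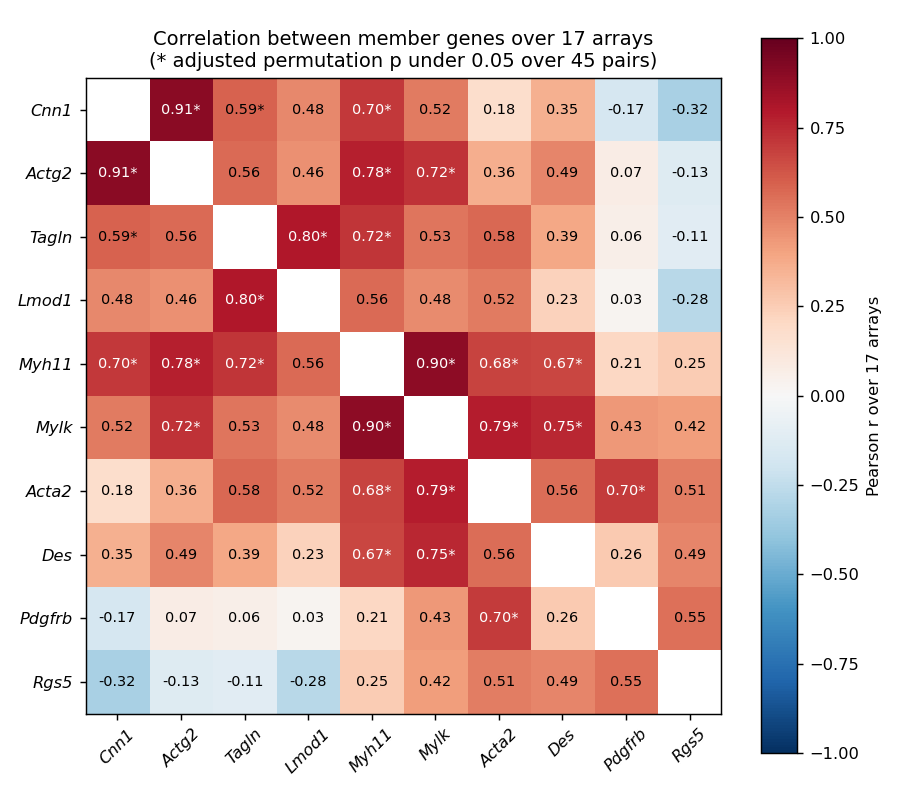
Pearson r of each pair of the 10 genes over the 17 arrays, coloured from blue for -1 to red for 1, with a star where the permutation p adjusted over 45 pairs is under 0.05. The block at the upper left holds the filament and motor genes, Cnn1 with Actg2 at 0.91 and Myh11 with Mylk at 0.90 being the highest, and the last row holds Rgs5, which is below 0 with Cnn1, Actg2, Tagln and Lmod1.

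Cnn1 and Actg2 formed the tightest pair, at r = 0.91 and Spearman's rho = 0.87 over 17 arrays (permutation p adjusted over 45 pairs = 0.000225 for both; the smallest unadjusted p that the permutations can give is 1e-05). It held at r = 0.80 without sham replicates 1 and 5, at 0.85 within exposed and 0.92 within sham arrays, and at 0.91 after centring on the slide. Myh11 and Mylk, the motor and its kinase, had r = 0.90 and rho = 0.75 (permutation p adjusted over 45 pairs = 0.000225 and 0.00488), and r = 0.78 without exposed replicate 1 and sham replicate 1. Within exposed arrays their r was 0.94 and within sham arrays 0.90.

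That motor pair depends on the probe of Mylk. The dimmer probe of Mylk had r = 0.46 with Myh11 and r = 0.42 with Acta2, against 0.90 and 0.79 for the brighter one. Tagln and Lmod1 had r = 0.80 and rho = 0.90 (permutation p adjusted over 45 pairs = 0.00203 and 0.000225), but with the dimmer probe of Lmod1 r was 0.48. With normexp background correction r was 0.53 and the pair no longer passed (permutation p adjusted over 45 pairs = 0.0692). Acta2 and Mylk had r = 0.79 and rho = 0.80 (permutation p adjusted over 45 pairs = 0.00203 and 0.00225), and r = 0.75 without exposed replicates 1 and 2.

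Some pairs were looser without a few arrays. Myh11 and Actg2 had r = 0.78 and rho = 0.59 (permutation p adjusted over 45 pairs = 0.00306 and 0.0445), and r was 0.43 without exposed replicate 1 and sham replicate 1. Without sham replicate 1 alone it was 0.59 and did not pass (adjusted permutation p = 0.062). Myh11 and Cnn1 had r = 0.70 but rho = 0.43 (permutation p adjusted over 45 pairs = 0.00888 and 0.162), and r = 0.44 without the same arrays, so their relation rests on those arrays. Tagln and Cnn1 also passed by r alone, at r = 0.59 and rho = 0.43 (permutation p adjusted over 45 pairs = 0.0457 and 0.162), with r = 0.07 within exposed and 0.77 within sham arrays. Of the 13 pairs 11 passed by rho too, all 13 were positive within exposed arrays, at 0.07 to 0.94, and within sham arrays, at 0.58 to 0.92, and centring on the slide left them at 0.55 to 0.91. Tested within each group alone, 5 pairs passed in exposed and 0 in sham arrays (exact permutation), and without sham replicate 1 the count over all arrays was 9, against 22 without exposed replicate 4.

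Des went with the motor genes. Its r was 0.75 with Mylk and 0.67 with Myh11 (permutation p adjusted over 45 pairs = 0.00428 and 0.0166), with rho of 0.76 and 0.81 (adjusted permutation p = 0.00432 and 0.00225). Without the 3 arrays that stood apart in skeletal muscle RNA, r was 0.87 with Mylk and 0.75 with Myh11, over 14 arrays. Rgs5 and Pdgfrb, the pericyte pair, had r = 0.55 and rho = 0.65 (permutation p adjusted over 45 pairs = 0.0528 and 0.0239), and r = 0.65 without exposed replicates 4 and 5. The pericyte pair thus passed by rho and missed the threshold by r. The same held for Acta2 with Tagln, Des and Lmod1, and for Des with Actg2. Acta2 stood on both sides: it passed with Myh11 and Mylk and also with Pdgfrb, at r = 0.70 and rho = 0.64 (permutation p adjusted over 45 pairs = 0.00888 and 0.0239), where r was 0.58 without exposed replicates 1 and 2. After centring on the slide the r of Acta2 with Pdgfrb was 0.70 but did not pass (adjusted permutation p = 0.0935).

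Scores of 10 other cell types were set against the 10 members, which gave 100 relations, and 7 passed at an adjusted permutation p under 0.05. Rgs5 followed the endothelial score, the mean of 8 measured markers of 10 listed, Pecam1 and Cdh5 first. That score ran from -0.30 to 0.41 with a median of 0.16 in exposed skin and from -0.28 to 0.54 with a median of -0.14 in sham skin. Rgs5 was higher where the score was higher, at r = 0.82 and rho = 0.81 (permutation p adjusted over 100 relations = 0.013 and 0.017), and r was 0.75 without exposed replicate 3 and sham replicate 7. Within exposed arrays it was 0.85, within sham arrays 0.82, and after centring on the slide 0.85. Pdgfrb had r = 0.71 and rho = 0.76 with the endothelial score (permutation p adjusted over 100 relations = 0.0258 and 0.033), and 0.65 without the same arrays. The relation of Pdgfrb did not pass without sham replicate 1, at an adjusted permutation p of 0.0563, or without sham replicate 7, at 0.0865.

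For Acta2 the relation with the endothelial score was r = 0.62 (permutation p adjusted over 100 relations = 0.0703) and did not pass. The other filament and motor genes had r from -0.37, for Cnn1, to 0.37, for Mylk, with the endothelial score, and none passed. Rgs5 and Pdgfrb were thus high on arrays where endothelial markers were high, and the part of endothelial content in their levels was not tested. After centring on the slide with permutations kept within slides, 1 of the 100 relations passed, that of Rgs5 with the endothelial score.

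**Figure D4:**
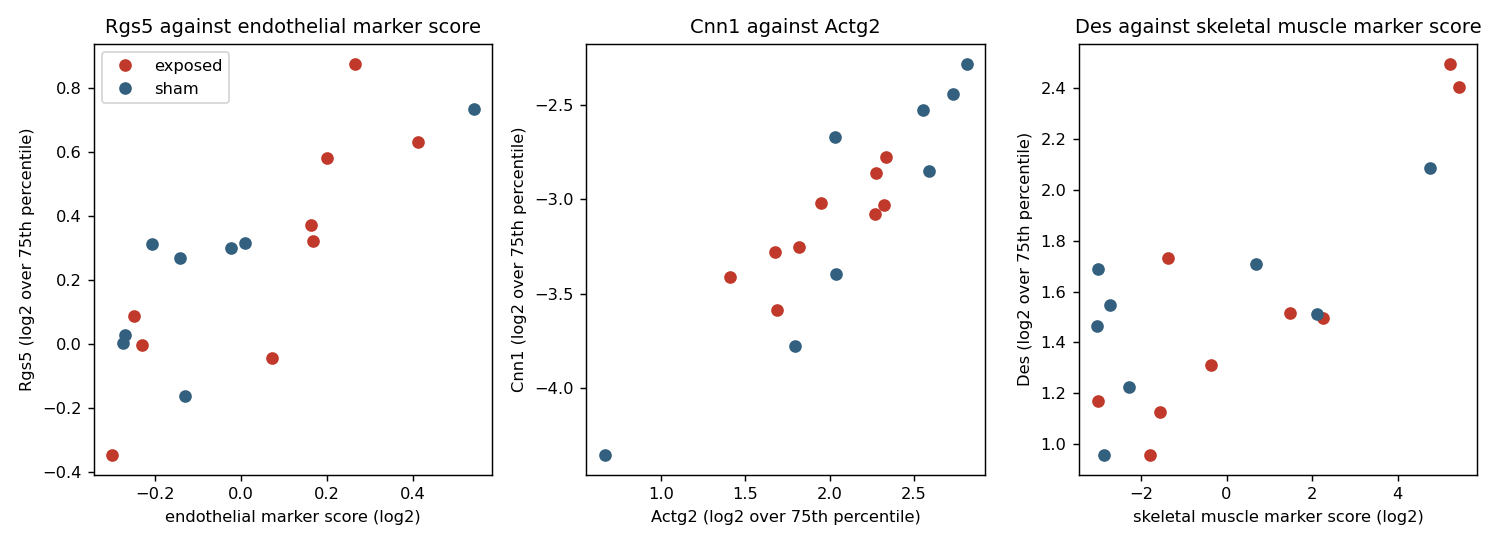
Rgs5 against the endothelial marker score, Cnn1 against Actg2, and Des against the skeletal muscle marker score, all in log2 units, with 1 point per array, exposed in red and sham in blue. Rgs5 climbs with the endothelial score in both groups (r = 0.82), Cnn1 climbs with Actg2 (r = 0.91) with sham replicate 1 at the lower left, and the 3 arrays at the right of the last panel hold the 3 highest values of Des.

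The remaining relations with other tissues that passed by r were weaker without the 2 arrays farthest from the median of the score. Tagln was lower where epidermal markers were higher, at r = -0.71 and rho = -0.73 with a score of 4 measured markers of 8 listed, Krt5 and Krt14 first (permutation p adjusted over 100 relations = 0.0258 and 0.0363), and r = -0.59 without exposed replicate 3 and sham replicate 3. The epidermal score ran from -0.45 to 0.23 with a median of -0.0048 in exposed skin and from -0.29 to 0.25 with a median of 0.09 in sham skin. Acta2 and Lmod1 passed with this score by rho but not by r, at rho = -0.69 and -0.70 (permutation p adjusted over 100 relations = 0.0491 for both). Tagln was also higher with a higher adipocyte score, 6 measured markers of 8 listed, Adipoq and Fabp4 first, at r = 0.74 and rho = 0.65 (permutation p adjusted over 100 relations = 0.0258 and 0.0606), and r was 0.47 without sham replicates 3 and 6. The adipocyte score ran from -0.36 to 0.67 with a median of 0.24 in exposed skin and from -1.30 to 1.39 with a median of -0.44 in sham skin.

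Cnn1 and Actg2 went with the sebaceous gland score, the mean of 5 markers, Scd and Awat1 first. Their r was 0.73 and 0.71 (permutation p adjusted over 100 relations = 0.0258 and 0.0414), but without sham replicates 1 and 5 it was 0.34 and 0.24, so both relations rest on those arrays. The sebaceous score ran from -0.19 to 0.19 with a median of -1.7e-05 in exposed skin and from -0.57 to 0.38 with a median of 0.02 in sham skin. Lmod1 was higher with a higher skeletal muscle score over the 14 arrays that did not stand apart, at r = 0.76 and rho = 0.74 (permutation p adjusted over 100 relations = 0.028 and 0.0491), and r was 0.51 without exposed replicate 6 and sham replicate 5. The arrays left out had the highest scores but not the highest Lmod1. Exposed replicates 4 and 8 and sham replicate 3 lay at -5.58, -5.00 and -4.85, inside the range of -6.07 to -4.26 of the other arrays. This relation was read from the brighter Lmod1 probe alone. Over the same 14 arrays Tagln passed with the skeletal muscle score by rho but not by r. Its r was 0.68 and its rho 0.78 (permutation p adjusted over 100 relations = 0.0703 and 0.0373). The part of these tissues in the levels of the members was not tested.

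The genes most like each member were taken as the 3 named genes outside the members with the highest r over the 17 arrays, as a description without a test. For Myh11 these were Myl9, the regulatory light chain of smooth muscle myosin, at r = 0.92, Ppp1r14a, an inhibitor of myosin phosphatase, at 0.90, and Chrdl1, an antagonist of bone morphogenetic proteins, at 0.85. Ppp1r14a and Myl9 were also among the 3 for Actg2, at 0.87 and 0.84, after G6pc3, a glucose-6-phosphatase subunit, at 0.91. For Mylk they were Mustn1, at 0.90, Ppp1r14a, at 0.88, and Pcp4l1, at 0.88. Ppp1r14a was thus among the genes most like 3 members, the motor, its kinase and the gamma actin.

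Rgs5 had other company. Its 3 genes were Calcrl, the receptor for adrenomedullin and calcitonin gene-related peptide, at 0.88, Sema6d at 0.88 and Podxl, a surface mucin of endothelium and podocytes, at 0.87. Pdgfrb was most like Emilin1, an elastic fibre protein, at 0.90, Hsd17b11 at 0.90 and Arhgef2 at 0.89. For Des they were Rbm24, a splicing factor of striated muscle, at 0.96, the calcium channel subunit Cacna2d1 at 0.94 and Cap2 at 0.94, and without the 3 arrays apart in skeletal muscle RNA these were 0.85, 0.80 and 0.78. Acta2 was most like Slc22a3, a cation transporter whose probe was well above background on 13 arrays, at 0.90, Cntn2 at 0.90 and Pkig, an inhibitor of protein kinase A, at 0.89.

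For Cnn1 the 3 genes were Mul1 at 0.86, the chemokine Ccl21 at 0.84 and Slc6a18 at 0.84, and leaving out sham replicate 1 brought them to 0.77, 0.78 and 0.74. Tagln was most like Optn at 0.84, Tshr at 0.82 and Spink8 at 0.82. Lmod1 had the loosest company, with Mest at 0.76 and Tspan17 at 0.75. Levels that run together over arrays share the array's tissue make-up and scaling.

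The other 4 lists of the pathway gave 94 measured genes beside the members. In the contractile apparatus 31 of 36 genes were measured, and 26 differences were positive and 5 negative, with a median of 0.05. Of the 31, 0 passed the adjusted threshold and 0 the unadjusted one, beside 0% and 4.55% of all kept probes. Myl9 averaged 1.79 ± 0.21 over the 9 exposed arrays and 1.77 ± 0.36 over the 8 sham arrays (SD), a difference of 0.014. The differences were 0.025 for Ppp1r14a, 0.10 for Smtn, the smooth muscle protein smoothelin, 0.0085 for caldesmon Cald1, 0.094 and -0.00081 for the tropomyosins Tpm1 and Tpm2, and 0.39 for the small heat shock protein Hspb6, whose interval of -0.69 to 1.48 was wide. Synpo2 has no named probe. Hspb6 varied with Des, at r = 0.89.

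The measured contractile genes spread widely in their r with Myh11 over the arrays. An r over 0.5 with Myh11 was found for 13 of the 31, against 2.90% of 11156 other named genes, and for 4 of the 31 with Rgs5, against 5.50%. The 13 include Hspb6, at r = 0.51 with Myh11 and 0.89 with Des. All arrays entered this count, also those apart in skeletal muscle RNA, and the part of striated muscle in it was not tested. Smtn, Cald1 and Tpm1 were on the other side, at r of -0.11, -0.36 and -0.10 with Myh11. Tpm2 had r = 0.59 with Myh11 and 0.75 with Cnn1. A probe reads only some transcripts of a gene, and the part of transcript variants was not tested.

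Among the regulators 14 of 20 genes were measured, and 8 differences were positive and 6 negative, with a median of 0.0098. Of the 14, 0 passed the adjusted threshold and 0 the unadjusted one, beside 0% and 4.55% of all kept probes. Srf had a difference of -0.02, its partner Myocd -0.10 and Tead1, a factor that binds with the co-activators of the Hippo pathway, 0.04. Mrtfa, another partner of Srf, has no named probe. Over the arrays r with Myh11 was -0.13 for Srf, 0.02 for Myocd and 0.08 for Tead1. An r over 0.5 with Myh11 was found for 0 of the 14 regulators, against 2.90% of other named genes.

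In the list of pericytes and their recruitment 18 of 22 genes were measured and 0 passed the adjusted threshold, with 13 differences positive, 5 negative and a median of 0.05. Below an unadjusted p of 0.05 lay 1 of the 18, higher in exposed skin, beside 4.55% of all kept probes, 0.584% higher and 3.96% lower. It was Steap4, a metalloreductase, named here after its values were seen, at 1.49 ± 0.19 over the 9 exposed arrays and 1.28 ± 0.15 over the 8 sham arrays (SD), a difference of 0.21 (limma, adjusted p = 0.982). The differences were -0.03 for the proteoglycan Cspg4, -0.0047 for the potassium channel subunit Kcnj8, -0.0067 for its partner Abcc9, 0.05 for the adhesion molecule Mcam, -0.03 for the receptor Notch3 and 0.05 for the ligand Pdgfb. Neither the ligand Pdgfb nor its receptor Pdgfrb thus had a difference that passed.

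Many genes of this list had a high r with Rgs5 over the arrays. An r over 0.5 was found for 12 of the 18 with Rgs5, against 5.50% of other named genes, and for 10 with Pdgfrb, against 8.30%. With Myh11 it was found for 0 of the 18, against 2.90%, which is near that share. With Acta2 it was found for 9 of the 18, against 5.86%, and with Mylk for 4, against 4.87%. The count was 2 with Tagln, against 4.67%. It was 1 each with Cnn1, Lmod1 and Actg2, against 9.87%, 3.41% and 8.63%. Mcam had r = 0.75 with Rgs5, Pdgfb 0.56 and Abcc9 0.50, and Notch3, Cspg4 and Kcnj8 had 0.47, 0.13 and 0.09. Mcam and Pdgfb are made by endothelial cells as well, and the endothelial score moves with Rgs5 as given above.

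**Figure D5:**
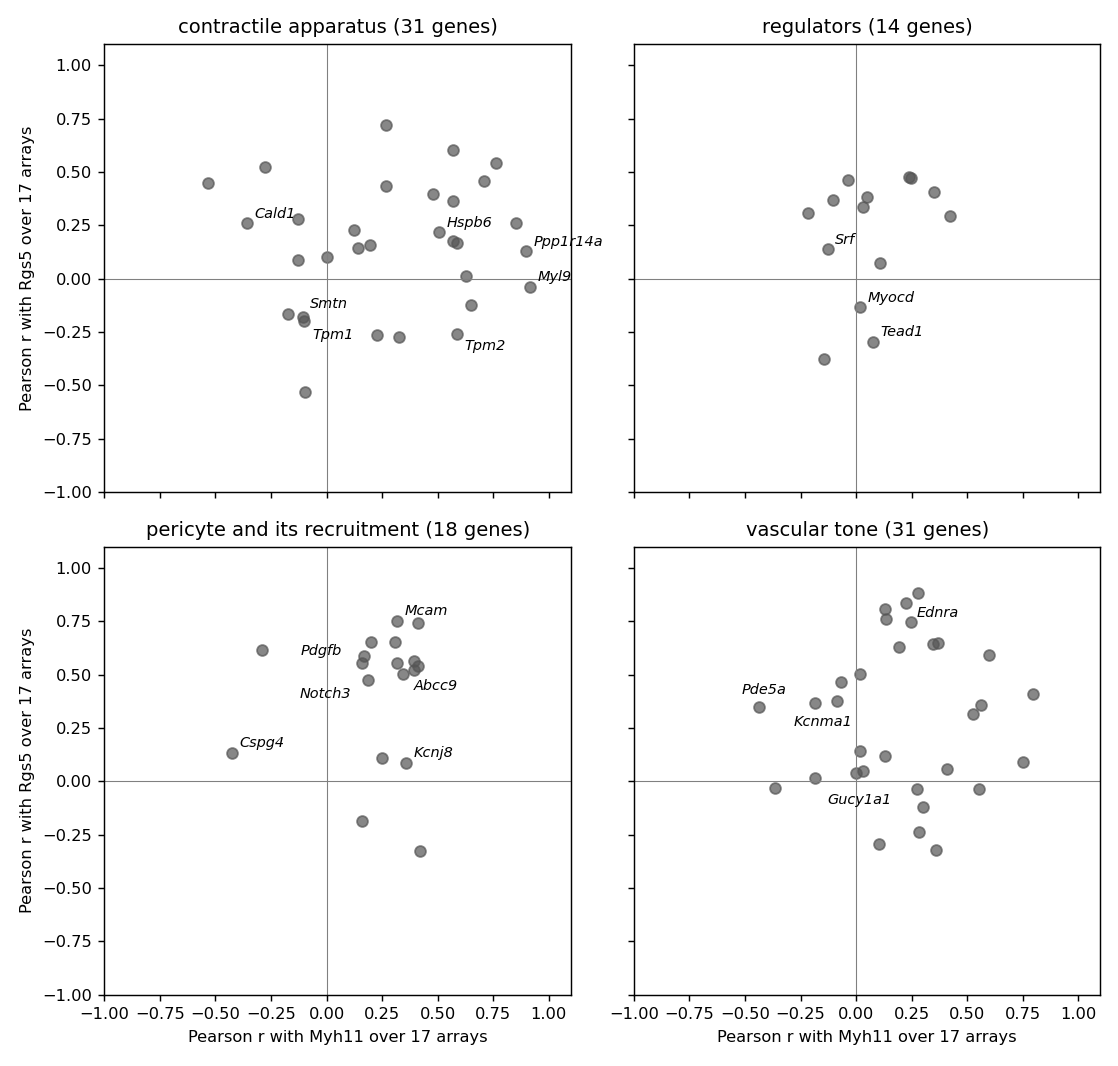
Pearson r with Myh11 on the horizontal axis and with Rgs5 on the vertical axis, over 17 arrays, for the measured genes of 4 lists of the pathway, with 1 point per gene. Only the preset genes of each list are labelled. The contractile genes Myl9 and Ppp1r14a lie at the far right, with r of -0.04 and 0.13 to Rgs5. Of the 31 contractile genes 4 lie above an r of 0.5 to Rgs5, among them Mustn1, at 0.54, which has 0.765 with Myh11. Of the 18 pericyte genes 12 lie above an r of 0.5 to Rgs5. None of the 18 lies to the right of 0.5 with Myh11, against 2.90% of other named genes.

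Of the genes that set vascular tone 31 of 37 were measured and 0 passed the adjusted threshold, with 22 differences positive, 9 negative and a median of 0.09. An unadjusted p under 0.05 was found for 3 of the 31, with 1 higher and 2 lower in exposed skin, beside 4.55% of all kept probes, 0.584% higher and 3.96% lower. They are named here after their values were seen. Avpr1a, a vasopressin receptor, averaged -3.77 ± 0.24 over the 9 exposed arrays and -4.11 ± 0.39 over the 8 sham arrays (SD), a difference of 0.33. Arhgef12, an activator of the small GTPase RhoA, differed by -0.13 and Rgs2, a regulator of G protein signalling, by -0.28, each at an adjusted p of 0.982 (limma).

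The differences of the other genes of tone were 0.15 for the endothelin receptor Ednra, -0.12 for Pde5a, which degrades cyclic GMP, -0.28 for Kcnma1, the pore of a calcium-activated potassium channel, and 0.04 for Gucy1a1, a subunit of the nitric oxide receptor. The probes of Prkg1 and Kcnmb1 were too dim to keep. Ednra ran with Rgs5 over the arrays, at r = 0.84, and hardly with Myh11, at r = 0.22. Pde5a, Kcnma1 and Gucy1a1 had r of 0.35, 0.37 and -0.04 with Rgs5, and of -0.44, -0.18 and 0.28 with Myh11. An r over 0.5 was found for 10 of the 31 genes of tone with Rgs5, against 5.50% of other named genes, and for 6 of the 31 with Myh11, against 2.90%.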

How the data were processed

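RNA of 17 skin biopsies was labelled with Cy3 and hybridised to 1-colour Agilent arrays, per the labels' protocols. The deposited scanner files hold linear intensity. Per the file headers, the authors' software for it was Agilent Feature Extraction, version 10.7.3.1, run with protocol GE1_107_Sep09, which subtracts background within each array. Those headers also name per-spot quality flags, which were used as scores of 0 or 1. The authors' deposited value table holds log2 values of 14853 probes with a median of 0 in each row. Its columns had r of 0.98 to 0.999 with the scanner values and medians of -0.037 to 0.041, which settles its direction and log scale, while its scaling step is not given in the sources used here. The value table served as an alternative.

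From the files, log2 of the processed signal minus the array's 75th percentile over all spots that are no controls was computed, leaving out spots flagged as outliers and averaging the spots of a probe. The 75th percentile was 1077 to 1703, and 66.7 to 70.8% of probes were well above background, with no saturated spot. Precision is limited by how many arrays there are. Of 30367 probes 20709, well above background on at least 8 arrays, were kept, of which 18759 were so on all 17. Names came from a RefSeq table of assembly GRCr8, while the array grid is annotated on rn4, so no gene coordinates from it are given. A gene was read from its kept probe with the highest mean.

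The comparison of exposed with sham arrays used limma 3.58.1 (R 4.3.3), adjusted by Benjamini-Hochberg over all kept probes, without covariates. Correlations used Python 3.11.15 and 100000 two-sided permutations, or all of them within a group. For the muscle scores, arrays beyond a gap of over 25% of the score's range were left out, a rule chosen after seeing the data. The members and lists were chosen with earlier results of these data known. Named genes are the members, preset genes of each list and the 3 most alike genes of each member. A gene that this rule names is not reported here. Alternatives were median and quantile scaling, normexp (offset 50, on the median signal, since the files used here hold no mean signal), the value table, slide as a block, array weights, both filters, a skeletal muscle covariate, the other probe and leaving out each array. On simulated arrays of 20693 probes the fit recovered 35% of probes changed 1.25-fold, 71.3% changed 1.5-fold and 89.3% changed 2-fold, with 4.65% of calls false, each probe being drawn independently. The arrays were drawn independently too, as if none shared an animal. These rates are averages over all probes and do not hold for each member, since the spread differs between genes.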

Additional observations from a re-analysis of the deposited data

How the results depend on the processing

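The count of probes past the adjusted threshold was 0 in limma under every alternative tried, with 579 to 1351 probes at an unadjusted p under 0.05, and 0 genes of the pathway lists passed under any of them. The median difference of the 10 members, 0.062, turned to -0.0055 with array weights, and leaving out single arrays moved it between -0.014, without sham replicate 1, and 0.13, without exposed replicate 1. No member passed under any alternative, and signs of small differences turned. With the skeletal muscle score as a covariate the differences were -0.015 for Tagln, -0.0086 for Myh11, -0.13 for Des, -0.059 for Lmod1 and -0.021 for Mylk. With array weights they were -0.0092 for Myh11, -0.019 for Des, -0.018 for Rgs5 and -0.0017 for Mylk, with normexp -0.038 for Lmod1, and with the other probe -0.22 for Mylk. Leaving out single arrays moved Tagln between -0.0090 and 0.17, Myh11 between -0.039 and 0.13, Cnn1 between -0.30 and 0.0014, Des between -0.061 and 0.13, Rgs5 between -0.025 and 0.13, Lmod1 between -0.049 and 0.19 and Mylk between -0.019 and 0.098. The cause was not tested. The 13 member pairs past the threshold became 5 within exposed and 0 within sham arrays, where fewer arrays were tested, and 9 to 22 when single arrays were left out. An alternative added after seeing the data, without the 3 arrays apart in skeletal muscle RNA, gave 18 pairs. The 7 relations with cell type scores became 11 with the value table, 1 after centring on the slide, 0 within exposed and 0 within sham arrays, and 2 to 8 when single arrays were left out, the lowest without sham replicate 1. Among the single genes, pairs and relations followed, 487 values kept their direction and side of the threshold, 25 reversed, 20 lost and 6 gained significance. No paired analysis was possible because the labels give no replicate numbers shared by the groups. Low signals limit Lmod1 most, whose other probe was not well above background on every array.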
